A study of Solanum lycopersicum and Solanum tuberosum and Capsicum annuum and Nicotiana tabacum with 10 samples.

Results

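Leaf RNA of Petunia x hybrida was compared with potato leaf RNA (Solanum tuberosum) on the 2 arrays of the series titled for potato against petunia, of 10 arrays in all. These arrays were chosen by their titles alone. The other 8 arrays carried tomato, pepper, tobacco and Nicotiana benthamiana RNA, 2 arrays each. They serve here to show where petunia differed from the 4 other query species. They also enter the estimate of spread behind the p-values of petunia against potato. All plants were grown without treatment at 25°C with 16 h of light, and mature leaves were taken after 4 to 6 weeks. Petunia RNA was labeled with Cy3 and potato RNA with Cy5 on both arrays, so a dye effect of a gene and a difference between the species cannot be told apart. The source labels of both species differ between the 2 arrays, and 1 potato source label is shared by all arrays with the same replicate number. The labels do not say whether the extracts came from separate plants. The p-values therefore cover the spread of these samples only, and that spread may be technical.

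Every probe on the array is a potato cDNA clone. In such a heterologous hybridization the RNA of a relative binds to a probe of another species, and the signal depends both on the amount of the transcript and on how well the sequences match. Weaker binding of petunia RNA to a potato probe and a lower transcript level in petunia cannot be told apart here. Petunia is an ornamental of the Solanaceae that forms neither tubers nor fleshy fruit, whereas potato stores starch and protein in tubers. In the mature leaf of either species, photosynthesis, the export of sugar and the synthesis of defensive compounds are major tasks. Each spot came with a log2 ratio of its channels. Positive values likely stand for a brighter potato signal and negative values for a brighter petunia signal, as the array titles name potato first, but no source used here states the direction. If it runs the other way, every sign below turns.

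Of 15360 clone positions, each printed as 2 spots, 9426 gave a value in replicate 1 and 10343 in replicate 2. A value on both arrays was obtained for 9293 clones, on replicate 2 alone for 1050 and on replicate 1 alone for 133. Only 1 of the 2 spots was measured for 20.9% of the clones in replicate 1 and 13.5% in replicate 2. The median log2 ratio was -0.064 and -0.043, and the SD over clones 1.07 and 1.11. The arrays were thus alike in centre and width, while replicate 1 held fewer clones. No level of a single channel was analysed here, so the leaf identity of the samples could not be checked by level. Of the leaf markers listed for this purpose only PSBR carried a symbol, and of the tuber markers only GBSS.

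The 2 petunia arrays gave the same sign for 85.1% of the 9293 clones. Replicate 1 and replicate 2 differed by a median of 0.29 in size on the log2 scale, 73.8% of clones differed by under 0.5, and 459 clones (4.94%) differed by more than 1. Between the 2 spots of a clone on 1 array the median absolute difference was 0.18 and 0.19. The arrays thus differed more than the spots of 1 array did, and the plot of replicate 1 against replicate 2 shows the spread.

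**Figure D1:**
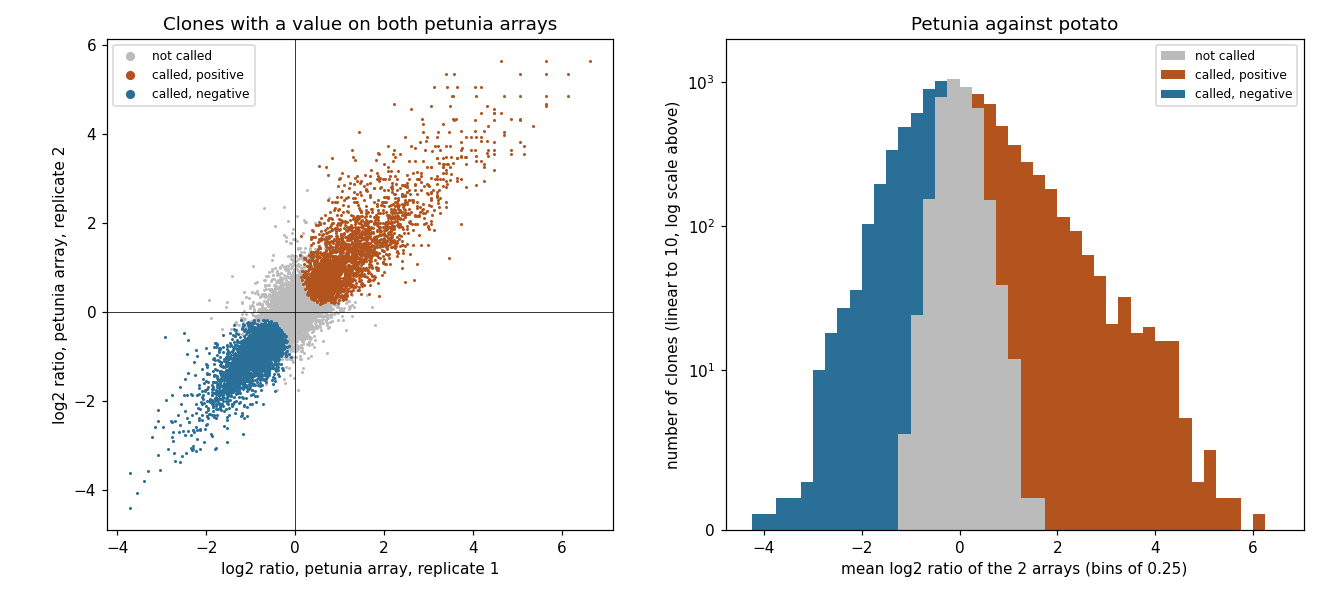
Left, log2 ratio of each clone on the petunia array of replicate 1 (x axis) and of replicate 2 (y axis), for 9293 clones with a value on both. Right, number of clones by mean log2 ratio in bins of 0.25, on an axis that is linear up to 10 and logarithmic above. Colors give the call at an adjusted p under 0.05, and the positive tail is the longer one, with 143 clones above a mean of 3 against 9 below -3.

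Petunia and potato leaves differed at many clones. With limma, 5475 of 9293 clones passed an adjusted p of 0.05, of which 2687 were positive and 2788 negative, or 58.9% in all, 28.9% positive and 30.0% negative. The balance of the directions depended on the scaling, since median-centred arrays gave 2852 positive calls and 2579 negative ones, and scaled arrays 2817 and 2549. The mean was within 2-fold of potato for 70.5% of clones. Small differences were called too: 22.3% of the clones with a mean between 0.25 and 0.5 in size passed, 86.3% of those between 0.5 and 1, and all 560 of those above 2. The extremes were unequal. Beyond 4-fold 460 clones were positive and 100 negative, and beyond 8-fold 143 and 9. The highest mean was 6.14 and the lowest -4.05. The arrays limit this count, as 4038 clones were called without replicate 1 and 3563 without replicate 2, where the remaining petunia array is assumed to vary like the other species.

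Gene symbols were available for a small part of the clones. A single symbol belonged to 815 clones of 430 genes, and 723 of these clones, from 402 genes, had a value on both petunia arrays. Of the 723 clones, 322 were called positive and 146 negative (64.7% called, against 58.9% of all clones), with a median log2 ratio of 0.36 against -0.042 over all clones. A locus name alone was given for 339 of the 430 genes. Of the other 91 genes, 66 were placed in groups by function, and for 25 no role is given here. At least 1 clone with a value on both arrays was found for 83 of the 91 genes. Of their 136 clones 62 were positive, 27 negative and 47 did not pass, or 65.4% called. Since 58.9% of all clones passed, the counts below are to be read against these shares, and nothing is called particular to a group.

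Starch and sugar genes included the gene with the lowest mean among the clones with a single symbol. This was GBSS, a starch synthase bound to the granule and the maker of amylose, with log2 ratios of -3.08 in replicate 1 and -3.22 in replicate 2 in one clone (mean -3.15, standard error 0.19, adjusted p = 3.76e-06 from limma). Its second clone had -1.65 and -1.82 (mean -1.73, adjusted p = 6.22e-05). Both clones of GBSS thus lay on the petunia side on both arrays, by 8.86-fold for the first. HXKRP1, a hexokinase-related protein, followed with -1.48 and -1.61 (adjusted p = 2.4e-05 from limma). SUT2, a sucrose transporter, had -0.88 and -0.91, but the call was lost without replicate 2 (adjusted p = 0.0564).

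On the potato side of the same group stood PPA1, a soluble inorganic pyrophosphatase, with 1.91 and 1.51 (mean 1.71, adjusted p = 0.000716 from limma). Both clones of STUGE51, a UDP-glucose epimerase that interconverts UDP-glucose and UDP-galactose, were close to each other, at 1.32 and 0.999 and at 1.38 and 1.01, with means of 1.16 and 1.20. The other epimerase gene, STUGE45, had -0.47 and 0.14 and did not pass (adjusted p = 0.462). AMYA1, an alpha-amylase that breaks starch down, passed at a mean of 0.39 (adjusted p = 0.0467). PAIN-1, the soluble acid invertase, had 0.30 and 1.22 and did not pass (adjusted p = 0.195), but it passed in a fit to the petunia arrays alone (0.0395). Over the group, 4 of 10 clones were positive, 4 negative and 2 did not pass, with a median of 0.11. Without replicate 1 or 2 the call of AMYA1 was lost (adjusted p = 0.132 and 0.275), as it was in the fit to the petunia arrays alone (0.126), and 1 clone of STUGE51 was lost without replicate 1 (0.0635).

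Photosynthesis and plastid genes went in both directions. PSBR, a subunit of photosystem II at the oxygen-evolving side, had 3 clones with a value on both arrays. In 2 of them the values were 2.30 and 2.12 and 2.29 and 2.40, with means of 2.21 and 2.34 (adjusted p = 2.97e-05 and 3.63e-05 from limma), while the third clone stood at -0.32 and -0.03 and did not pass. A further 3 clones of PSBR had no value on either petunia array. TK, transketolase of the Calvin cycle and the pentose phosphate pathway, was negative in both of its clones, at -1.54 and -0.82 (mean -1.18) and at -1.17 and -0.71 (mean -0.94). THF1, a protein of thylakoid formation, was positive at 0.80 and 0.58. The signal of these 3 genes was thus opposed in direction, and within PSBR the clones disagreed. Without replicate 1 the call was lost for the first TK clone (adjusted p = 0.132) and THF1 (0.0734).

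Among the genes of glycolysis and fermentation, 11 of 18 clones were positive, none was negative and 7 did not pass, with a median of 0.70. The share called, 61.1%, was near the 58.9% of all clones. Clones with a single symbol were also called positive more often than negative (322 and 146). The glycolytic dehydrogenase GAPDH accounted for 8 of the 18 clones. Of these, 5 were called, with means from 0.63 to 1.02, and 3 did not pass, with means of 0.03, 0.30 and 0.37. In replicate 1 the 8 clones ran from 0.29 to 1.24 and in replicate 2 from -0.23 to 0.81, and each clone was lower in replicate 2. The clones of 1 gene share a target, so their common shift between arrays is 1 observation and not 8. Without replicate 1 only the clone at 1.02 kept its call (adjusted p = 0.0432), and the other called clones had adjusted p of 0.0696 to 0.316. The weakest called clone was also lost without replicate 2 (0.0617).

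Further down the pathway, PGAM, phosphoglycerate mutase, was positive in both clones, at 0.60 and 0.98 and at 0.74 and 0.89. PK, pyruvate kinase, had 0.54 and 0.92 (mean 0.73, adjusted p = 0.00191 from limma). The alpha subunit of pyruvate dehydrogenase, PDHE1-A, had means of 0.74 and 0.98 in its 2 clones. The called clones of GAPDH, PGAM, PK and PDHE1-A thus lay on the potato side. That direction was also the more common one among all called clones with a single symbol (322 positive and 146 negative). GPI, glucose-6-phosphate isomerase, was called in 1 clone (0.66) and stood at 0.15 in the other. ADH1, an alcohol dehydrogenase, had -0.29 and 0.05, LDH-2, lactate dehydrogenase, 0.17 and -0.23, and LPD2, a lipoamide dehydrogenase, -0.18 and -0.38, and none of these 3 genes passed. Without replicate 2 the calls of PK (adjusted p = 0.0567), GPI (0.0607) and 1 clone each of PGAM (0.121) and PDHE1-A (0.097) were lost.

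The mitochondrial genes that relieve the respiratory chain differed from each other. AOX, the alternative oxidase that passes electrons to oxygen without proton pumping, was negative with -1.56 and -1.30 (mean -1.43, standard error 0.21, adjusted p = 0.000362 from limma). UCP, an uncoupling protein of the inner membrane, had means of 0.67 in both clones, of which 1 passed (adjusted p = 0.0243) and the other did not (0.0578), though it did on median-centred arrays (0.0449), with the petunia arrays alone (0.0332) and with the replicate number as a random block (0.0262). TOM20, a receptor of protein import, had 0.79 and 0.43, and TYKY2, a subunit of complex I, had -0.07 and -0.55 without a call. Without replicate 1 neither UCP (adjusted p = 0.162) nor TOM20 (0.11) passed, and UCP was also lost without replicate 2 (0.0977). AOX kept its call in both cases.

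The methionine cycle was divided between its enzymes. MS, methionine synthase, which makes methionine from homocysteine, was negative in all 5 clones, with means of -1.77, -1.61, -1.45, -1.43 and -0.71. The 4 strongest clones ran from -1.42 to -1.63 in replicate 1 and from -1.40 to -1.91 in replicate 2, so all 8 values lay beyond 2-fold on the petunia side. METK1, S-adenosylmethionine synthetase, which uses methionine for the methyl donor of the cell, was positive in 4 of 8 clones, and all 8 means were above 0, from 0.23 to 0.90. Its values in replicate 1 ran from -0.11 to 0.60 and in replicate 2 from 0.45 to 1.26, and every clone was higher in replicate 2. ARD, the acireductone dioxygenase of methionine salvage, had 0.56 and 0.03 and did not pass. No METK1 clone passed without replicate 2 (adjusted p from 0.0672 to 0.974), and the weakest MS clone was also lost (0.189). The METK1 clone at 0.82 was at an adjusted p of 0.0502, and it passed on median-centred arrays (0.0414). The METK1 clone at 0.44 was lost without replicate 1 as well (0.0861).

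In the branched-chain amino acid pathway, BCAT2, an aminotransferase, was positive with 1.05 and 1.04. BCAT1, a second aminotransferase of this pathway, went the other way with -0.40 and -0.63 (adjusted p = 0.0366 from limma). That call was lost without either array (adjusted p = 0.0902 and 0.269), on median-centred arrays (0.0529) and with the arrays scaled (0.0616). TS, threonine synthase, had 0.36 and 0.56 and was lost without replicate 2 (adjusted p = 0.169). SHKA, which starts the shikimate pathway to aromatic amino acids, had 0.33 and -0.03 and did not pass. The only clone of SHMT, serine hydroxymethyltransferase, had no value on either petunia array. Over all genes of amino acids and one-carbon units, 6 of 18 clones were positive, 6 negative and 6 did not pass.

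**Figure D2:**
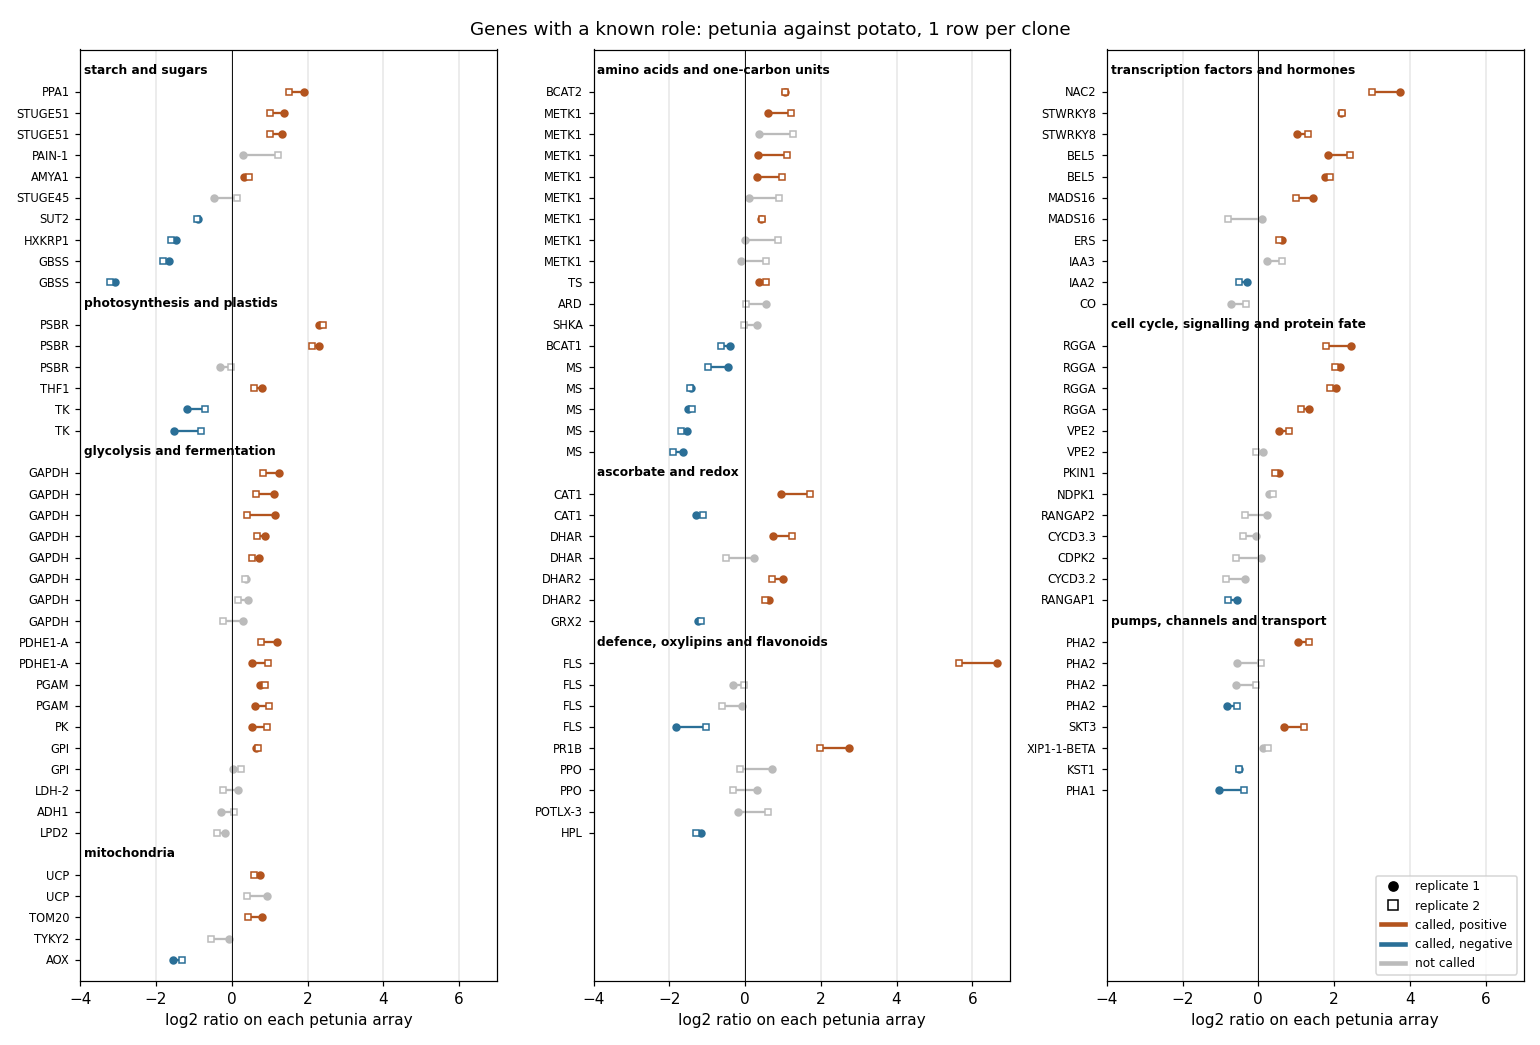
Log2 ratio (x axis) of 105 clones of genes with a stated role on the petunia array of replicate 1 (filled circles) and replicate 2 (open squares), 1 row per clone and joined by a line. Colors give the call at an adjusted p under 0.05, and the rows show 1 clone of FLS at 6.64 and 5.64, GBSS at -3.08 and -3.22 and all clones of MS on the negative side.

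Redox genes also split by enzyme and by clone. DHAR2, a dehydroascorbate reductase that recycles ascorbate, was positive in both clones, at 0.63 and 0.53 and at 1.01 and 0.70 (adjusted p = 0.00986 and 0.00128 from limma). DHAR, a related reductase, was positive in 1 clone (0.74 and 1.25) and stood at 0.24 and -0.50 in the other. GRX2, a glutaredoxin that reduces protein disulfides with glutathione, was negative at -1.23 and -1.17 (adjusted p = 9.23e-05). CAT1, a catalase that removes hydrogen peroxide, was called in both directions, at -1.31 and -1.11 in one clone and at 0.95 and 1.71 in the other. The symbol CAT1 therefore does not stand for 1 direction in petunia. The split was shared by the 8 other arrays, which ran from -1.43 to -0.41 in the first of these clones and from 0.24 to 3.0 in the other. The positive call of CAT1 (adjusted p = 0.0616) and that of DHAR (0.108) were lost without replicate 2, and the weaker DHAR2 clone was lost without either array (0.0961 and 0.0591). NAD(P)H:QR, a quinone reductase, had a value on all 8 other arrays, from -1.84 to 0.06, and on neither petunia array, the only gene with a single symbol of which this held. Over all clones there were 11 such cases.

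Genes of defence, oxylipins and flavonoids gave the highest ratio of any named gene. One clone of FLS, flavonol synthase, had 6.64 and 5.64, which are ratios of the channels, likely petunia to potato, of 0.01 and 0.02 and so at the resolution of the deposited values. The other clones of FLS had -1.82 and -1.02 (mean -1.42, adjusted p = 0.00738 from limma), -0.08 and -0.60, and -0.31 and -0.02. Of 4 clones, 1 was thus positive, 1 negative and 2 did not pass, and the negative call was lost without replicate 1 (adjusted p = 0.119). PR1B, a pathogenesis-related protein of the defence response, had 2.74 and 1.98 (mean 2.36, adjusted p = 2.18e-05). A second clone of PR1B gave a value in replicate 2 only, 5.35. HPL, hydroperoxide lyase, which makes leaf volatiles from lipid hydroperoxides, was negative at -1.17 and -1.30, and a second clone with a value in replicate 2 alone had -0.46. PPO, the polyphenol oxidase that browns damaged tissue, changed sign between the arrays in both clones, with 0.32 and -0.32 in one and 0.71 and -0.14 in the other, and POTLX-3, a lipoxygenase, did so with -0.18 and 0.61. F3H, flavanone 3-hydroxylase of the flavonoid pathway, had a value in replicate 2 only, -1.71.

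Transcription factors and hormone genes lay mostly on the potato side, with 7 of 11 clones positive, 1 negative and 3 that did not pass, and a median of 1.16, the highest of these groups. The share called was 72.7%, beside 58.9% of all clones. Clones with a single symbol were also called positive more often than negative (322 and 146). NAC2, a NAC-domain factor, had 3.74 and 3.0 (mean 3.37, standard error 0.24, adjusted p = 7.79e-06 from limma). STWRKY8, a WRKY factor, had 2.18 and 2.22 in one clone and 1.02 and 1.31 in the other. BEL5, a homeodomain factor whose transcript moves from leaf to stolon and promotes tubers in potato, had 1.76 and 1.89 and, in its second clone, 1.84 and 2.43 (mean 2.13). For each of these 3 factors, all values of all clones were above 1. MADS16, a MADS-box factor, was positive in 1 clone (1.45 and 1.0) and had 0.09 and -0.79 in the other. CO, a homolog of the day-length regulator CONSTANS, had -0.71 and -0.33 and did not pass (adjusted p = 0.184). GA2OX1, a gibberellin 2-oxidase that inactivates gibberellins, had no value on either petunia array.

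Hormone genes changed less. ERS, an ethylene receptor, had 0.61 and 0.53 (adjusted p = 0.0107 from limma), IAA2, an auxin-responsive repressor, had -0.30 and -0.51 (adjusted p = 0.04), and IAA3 had 0.24 and 0.63 without a call. These calls were near the threshold. ERS was lost without either array (adjusted p = 0.0943 and 0.067), as was IAA2 (0.0907 and 0.304), and MADS16 was lost without replicate 1 (0.0677). IAA2 also lost its call on median-centred arrays (0.0677) and with the replicate block as a random term (0.0523), with which IAA3 gained one (0.0483).

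Pumps and channels were spread around potato. PHA2, a proton pump of the plasma membrane, had means of 1.20, -0.24, -0.33 and -0.70 in its 4 clones, of which the first was called positive and the last negative. PHA1, another pump of this family, had -1.04 and -0.38. KST1, a potassium channel of guard cells that takes part in stomatal opening, had -0.51 on both arrays in 1 clone. A second clone of KST1 had a value in replicate 2 only, 0.165. SKT3, a further potassium channel gene, went the other way from the first KST1 clone, with 0.69 and 1.20. XIP1-1-BETA, of the aquaporin family, had 0.12 and 0.25 and did not pass. Of the 8 clones with a value on both arrays 2 were positive, 3 negative and 3 did not pass. Without replicate 1 the adjusted p was 0.0647 for KST1, 0.395 for PHA1 and 0.199 for the negative PHA2 clone. Without replicate 2 it was 0.0741 for KST1, 0.0837 for SKT3 and 0.0863 for that PHA2 clone. On median-centred arrays PHA1 did not pass (0.0553).

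Among genes of the cell cycle, signalling and protein fate, RGGA had the highest means. In Arabidopsis a gene of this name encodes an RNA-binding protein. Its 4 clones had 2.45 and 1.79, 2.15 and 2.03, 2.05 and 1.90, and 1.34 and 1.12, with means of 2.12, 2.09, 1.98 and 1.23 (adjusted p from 4.84e-06 to 0.000101 from limma). All 8 values lay beyond 2-fold on the potato side. VPE2, a vacuolar processing protease, was positive in 1 clone (0.68) and had 0.04 in the other. PKIN1, a kinase of the SNF1 family that senses energy supply, had 0.55 and 0.43. RANGAP1, an activator of the Ran GTPase of nuclear transport, was negative with -0.55 and -0.80, and RANGAP2 had 0.23 and -0.35 without a call. The D-type cyclins that drive entry into the cell cycle, CYCD3.2 and CYCD3.3, had means of -0.60 and -0.23, NDPK1, a nucleoside diphosphate kinase, had 0.35, and CDPK2, a calcium-dependent kinase, had -0.25, none of which passed. NDPK1 passed with scaled (0.0447) or median-centred arrays (0.0486), and CYCD3.2 with the petunia arrays alone (0.0453) or the random block (0.0277). RANGAP1 was lost without replicate 2 (adjusted p = 0.135), and VPE2 (0.0769 and 0.207) and PKIN1 (0.167 and 0.0976) without either array. CDPK1, a further calcium-dependent kinase, had a value in replicate 2 only, 0.64.

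Several genes with strong ratios carry a symbol for which no role is given here. MIP2 had 4.35 and 4.19 (mean 4.27, adjusted p = 1.35e-06 from limma). The 3 clones of SRE1A had means of 2.42, 2.64 and 2.67, each higher in replicate 2 (2.94 to 3.18) than in replicate 1 (1.90 to 2.16). The 3 clones of SI1 had means of 1.51, 1.55 and 2.0, each higher in replicate 1. In both genes the shift between the arrays was shared by the clones and was smaller than their distance from 0. The clones of SS16 did not go together, with means of 1.35, 0.48 and -0.77, and the negative call was lost without replicate 1 (adjusted p = 0.213). Over the 22 genes tested whose role is not given here, 15 of 31 clones were positive, 5 negative and 11 did not pass.

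Of the genes with a locus name alone, LOC102577893 had 6.14 and 5.35 in its strongest clone and means of 4.70 and 4.06 in 2 others. LOC102577576 had 4.64 and 5.64, and LOC102577835 had 5.14 and 3.56 in one clone and 2.71 and 2.15 in the other. LOC102597208 had means of 4.40, 4.34 and 1.09, so 1 of its 3 clones stood far from the others. On the negative side LOC102585195 had -2.74 and -2.69 and, in a second clone, -2.79 and -2.46, and LOC102578902 had -2.41 and -2.68 in one clone and -2.0 and -2.25 in the other. LOC102586140 followed with -2.20 and -2.65. The next were LOC102587659, with -1.78 and -3.06, and LOC102577684, with -1.54 and -2.92, and for both the arrays lay over 1 apart. Without replicate 2 neither passed (adjusted p = 0.0772 and 0.0526 from limma). The remaining genes among the 12 strongest on the positive side were LOC102587499, LOC102590882, LOC102594176, LOC102586427 and LOC102580417, with means from 2.94 to 3.84. On the negative side they were LOC102606132, LOC102577743, LOC102591911, LOC102602939, LOC102577854 and LOC102577923, from -2.15 to -1.95.

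Clones of the same gene offered a check within the arrays. Of 172 genes with 2 or more clones tested, 57 had all clones called positive and 19 all called negative. In 12 genes clones were called in both directions, in 55 only some clones passed and in 29 none did. The median distance between the highest and the lowest clone of a gene was 0.53, and 83 genes had their clones within 0.5 of each other, whereas in 13 genes they lay over 2 apart. FLS, CAT1, PHA2 and SS16 were the genes with clones in both directions that carry more than a locus name. Which transcripts bound to each clone was not tested.

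To ask where petunia stood apart from the other query species, its mean was compared with the mean of tomato, pepper, tobacco and N. benthamiana. Potato and a dye effect of a gene cancel in this difference, whereas unequal binding of the query species to these probes stays in it. Of 9051 clones 880 differed at an adjusted p under 0.05 from limma (9.72%), with the log2 ratio of petunia higher in 512 (5.66%) and lower in 368 (4.07%). A higher log2 ratio in petunia is likely a weaker petunia signal. A fit that took the replicate number as a block, since same-numbered arrays share their potato source, gave 2235 clones (24.7%), among them all of the 880. Of the 880 clones 638 were called in the same direction against potato, 185 were not called against potato and 57 were called there in the opposite direction. The count fell to 63 without petunia replicate 1 and 141 without replicate 2. It was 384 and 403 without tomato replicate 1 and 2, and 542 and 481 without tobacco replicate 1 and 2.

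RGGA set petunia apart in all 4 clones. The clone with the largest difference had 2.05 and 1.90 in petunia and lay between -0.79 and 0.63 on the 8 other arrays, a difference of 1.96 (standard error 0.17, adjusted p = 0.00112 from limma). The other 3 clones differed by 1.58, 1.57 and 1.46 (adjusted p = 0.0061, 0.00132 and 0.00214). In each of the 4 clones both petunia values were above all 8 others, as in 5.77% of 7823 clones measured on every array, while both were below the others in 6.11%. RGGA was named for the size of its difference, so this position follows in part from the choice. The call of 1 clone, at 1.58, was lost without petunia replicate 1 (0.0833). The same held for R1, whose product is not named here, with 0.47 and 1.27 in petunia against -1.85 to -0.24 elsewhere (difference 1.95, adjusted p = 0.00866) and, in a second clone, 0.03 and 0.80 against -1.93 to -0.29 (difference 1.53, adjusted p = 0.0229). Against potato only the first R1 clone passed (adjusted p = 0.0228), a call that was lost without petunia replicate 2 (0.327), while all 8 other values were negative in both clones. In the comparison with the other species the second clone was lost without either petunia array (0.0774 and 0.179) and without tomato replicate 1 (0.0546). MIP2 differed by 1.74 from the mean of the others (adjusted p = 0.00292), where N. benthamiana had a value in replicate 1 only, 4.08, the highest of the others, and tomato had 0.49 and 0.52.

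Among locus names, LOC102586069 had 4 clones with petunia means from 1.71 to 2.24 and differences from 1.58 to 2.17, all called. LOC102577566 had 2.12 and 1.22 in petunia against values from -1.59 to -0.08 on the other arrays, a difference of 2.55 (adjusted p = 0.0138 from limma), and its second clone differed by 2.17. LOC102597208 differed by 2.0 and by 1.88 in its strong clones. In the clones of these 3 genes named here, both petunia values were above all values of the other species. These genes were named for the size of that difference, so this follows in part from the choice, and the 5.77% of all clones is no test of it. In the other direction LOC102586140 had -2.20 and -2.65 against -1.74 to -0.42 on the 6 other arrays with a value (difference -1.53), LOC102589596 had 0.80 and 0.69 against 1.21 to 3.32 (difference -1.46) and LOC102577923 had -1.85 and -2.04 against -1.11 to -0.13 (difference -1.25). LOC102582373 and LOC102606132 differed from the mean of the others (-1.63 and -1.25) without standing apart from every species, as tomato had -0.27 and -0.64 and petunia 0.66 and 0.78 for the first. For the second, petunia had -2.23 and -2.06, and tobacco and N. benthamiana ran from -2.35 to -2.05. LOC102596607 had -1.25 and -1.18, below all 8 others, of which tobacco and N. benthamiana ran from -0.81 to -0.61 (difference -1.25). Without 1 or the other petunia array several of these calls were lost, among them LOC102577566 (adjusted p = 0.147 and 0.0537 without replicate 1 and 2), LOC102582373 (0.0841 and 0.0544), LOC102589596 (0.0688 and 0.0623), LOC102577923 (0.0902 and 0.0988) and LOC102596607 (0.0922 and 0.0623). LOC102586069 (0.0617), R1 (0.0895) and LOC102586140 (0.0674) were lost without replicate 2, and LOC102606132 (0.0558) without replicate 1.

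**Figure D3:**
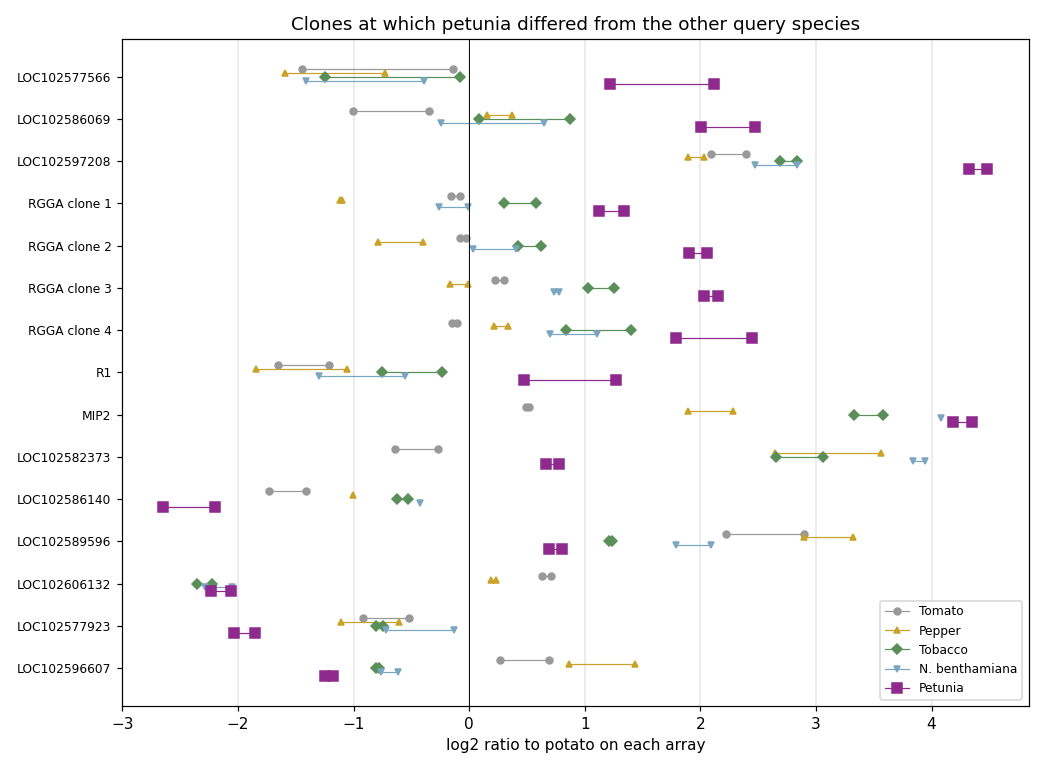
Log2 ratio to potato on each array (x axis) for the clones named in the comparison of petunia with the other query species, and for all 4 clones of RGGA. Each symbol is 1 array, the 2 arrays of a species are joined by a line, and the petunia values of RGGA, from 1.12 to 2.45, lie to the right of the other 8 values of the same clone.

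Other genes of known function were called at smaller differences than RGGA, with adjusted p above 0.01. The log2 ratio of GBSS was lower in petunia than in the mean of the others in both clones, by -0.97 (adjusted p = 0.025 from limma) and -0.84 (0.0312), which likely is a stronger petunia signal, but its petunia values lay within the range of the other arrays, which ran from -3.71 to -0.37 for the first clone. The ratio of the KST1 clone tested was lower by -0.55 (0.0434), with both petunia values below the 8 others, which ran from -0.28 to 0.30. The second KST1 clone was not tested. Its only petunia value, 0.165 in replicate 2, lay within those of the other species, from -0.084 to 0.277. The ratio of a PHA2 clone was lower by -0.98 (0.0471) and also stood below the other 8 values, from -0.16 to 1.09. The ratio was lower by -0.91 for POTLX-3 (0.0353), -0.59 for PK (0.0471), -0.79 for BCAT1 (0.0434) and -0.71 for 1 clone of MS (0.0389), the last with both petunia values below all others. Among the clones measured on every array, both petunia values were below all others in 6.11%. The clones given here are listed because they were called, so that share is no test of them.

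In the other direction LPD2 was near potato in petunia, at -0.18 and -0.38, and between -2.08 and -0.39 elsewhere, a difference of 1.09 (adjusted p = 0.0255 from limma). PEST2, whose product is not named here, had 0.92 and 0.53 against -1.13 to 0.08 (difference 1.20, adjusted p = 0.00992). THF1 differed by 0.99 (0.0128), 1 clone of DHAR2 by 0.79 (0.0262), 1 of PDHE1-A by 0.87 (0.0303), 1 of BEL5 by 0.99 (0.0416), PPA1 by 1.29 (0.0353), XIP1-1-BETA by 0.77 (0.0354) and 1 clone of PPO by 0.90 (0.0409). Of these 7 clones only that of BEL5 had both petunia values above all others, which reached 1.55, against 5.77% of all clones. The petunia values of LPD2 and PEST2 also lay above all others. All of these clones are listed because they were called, so that share is no test of them. FLS at its strongest clone (0.77, adjusted p = 0.174), NAC2 (0.32, 0.489) and PR1B (-0.22, 0.598) did not pass, which does not show that petunia and the other species were alike there.

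Among the 134 clones of genes with a symbol other than a locus name that were tested against the other species, the ratio of petunia was higher in 16 and lower in 8, beside 5.66% and 4.07% of all clones. With the block it was higher in 29 and lower in 19, beside 1150 and 1085 of all 9051 clones. The block added, among others, TYKY2 (-0.53, adjusted p = 0.0256 from limma), TOM20 (-0.55, 0.0189) and the second PPO clone (0.99, 0.000871). Most of the 24 calls were lost when either petunia array was left out. The count over all clones also fell in those fits, which keep 1 petunia array. Without petunia replicate 1, 5 of them passed, and without petunia replicate 2, 7 did. These were the same 4 clones in both cases, 3 of RGGA and 1 of MIP2, together with the fourth RGGA clone and PEST2 (0.048) without replicate 2, R1 (0.0461) without replicate 1 and POTLX-3 (0.0422) without replicate 2. PK did not pass without any 1 of the 10 arrays (0.0529 to 0.374), and KST1 passed only without N. benthamiana replicate 2 (0.048).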

How the data were processed

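The values in the deposited table are log2 ratios, 1 for each spot. Per the methods, the authors quantified the images in GenePix, left out spots that were not found, were saturated or were small, subtracted local background and applied the quantile method of limma, which the submitters' processing notes name without a version.

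Both spots of each clone were averaged. Their positions were derived from 905 spot pairs with a common sequence record, which all fitted 1 layout, in which 1728 empty positions held no value. Symbols were taken from the annotation of the platform, and 90 clones with several symbols stayed unnamed. limma 3.58.1 in R 4.3.3 (lmFit, eBayes, Benjamini-Hochberg at 0.05, two-sided) was fitted to all 10 arrays with 1 coefficient per query species, and tested on 9293 clones with a value on both petunia arrays, or 9051 where every other species had a value too. The script was tested on simulated data with independent noise on each array, which leaves out deviations shared by same-numbered arrays. Of the 2-fold changes set there, 61.2% were found against potato and 47.8% against the other query species. At 1.5-fold 19.4% and 8.96% were found, and at 4-fold 89.4% in both comparisons. Counts and plots were made in Python 3.11.15 with pandas 2.3.3 and matplotlib 3.10.9.

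Members and gene lists were chosen with earlier results of these data known. Groups were assembled from the symbols after the annotation was seen, since the key words first fixed need product names, which were not used here. The rule named the 12 genes with the largest called means in each direction against potato, and 6 in each direction against the other query species. Further genes with a symbol are described by role beyond that rule, after their values were seen.

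Replicate numbers pair the arrays, because the labels give 1 potato source per number. Deviations of petunia arrays from their mean correlated with those of the same-numbered arrays of each other species at 0.35 to 0.68 over 7823 clones, which is a description across clones. The small number of arrays limits the precision.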

Additional observations from a re-analysis of the deposited data

Results flagged for a closer look

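The genes named for the comparison of petunia with the 4 other query species are listed here because that difference itself passed the test (limma, adjusted p under 0.05). The log2 ratio to potato was higher in petunia, likely a weaker petunia signal, by 2.55 for LOC102577566, 2.17 for LOC102586069, 2.0 for LOC102597208, 1.96 for RGGA, 1.95 for R1 and 1.74 for MIP2. The ratio was lower, likely a stronger petunia signal, with differences of -1.63 for LOC102582373, -1.53 for LOC102586140, -1.46 for LOC102589596, -1.25 for LOC102606132, -1.25 for LOC102577923 and -1.25 for LOC102596607. Probe binding and transcript level cannot be told apart in these differences.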

How the results depend on the processing

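For petunia against potato, 5475 clones were called, and 2718 when a mean beyond 2-fold was also required. Leaving out a petunia array gave 3563 to 4038. The other settings (adjusted p under 0.01, median-centred or scaled arrays, robust eBayes, only the petunia arrays, clones with both spots or with a value on all arrays) gave 3926 to 5473 clones. With the replicate block as a random term the count was 5612. Of the 24 genes named against potato, LOC102587659 and LOC102577684 alone lost a call, both without petunia replicate 2, and none changed direction. Not every named clone entered every setting. Those of FLS, LOC102577576, LOC102586140 and LOC102591911 lacked a spot and were not in the fit to clones with both spots. Those of FLS, LOC102577576, MIP2 and LOC102586140 were not in the fits to clones with a value on all arrays. Petunia against the other query species gave 880 clones, 173 at an adjusted p under 0.01, 2235 with the replicate block as a fixed term and 2055 as a random term. Leaving out 1 of the 10 arrays gave 63 to 939. Every gene named there kept its direction, and 16 calls were lost, all without a petunia array or at an adjusted p under 0.01. Positive ratios above 5 stand for ratios of a few hundredths rounded to 2 decimals, so their size is coarse. The same applies to somewhat lower values, such as those of MIP2 (4.35 and 4.19 in petunia) and of the strongest clone of LOC102597208 (4.48 and 4.32). The standard errors do not include this rounding.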
